A study of Mus musculus with 14 samples.

Results

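The genes Lin28a, Lin28b, Trim71, Tdh, Gcat, Gldc and Nr0b1 were followed through the reprogramming of mouse tail fibroblasts labelled AID-null or wildtype. They are 7 of the 22026 genes in the deposited RNA tables and comprise 2 RNA-binding LIN28 proteins, their relative in the let-7 pathway TRIM71, 3 enzymes of threonine and glycine breakdown and an orphan nuclear receptor. They were chosen by name, and several were selected on their RNA level, which was much lower in the AID-null 3-week culture than in the wildtype 3-week culture; no numerical threshold was set. The difference between these 2 cultures is therefore given as a description, with no test, and supports nothing. The changes over 3 weeks share these libraries and are described in the same way.

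RNA was sequenced in 4 libraries and DNA methylation in 10 libraries by reduced representation bisulfite sequencing (RRBS), an assay of CpG-rich fragments cut out by a restriction enzyme. For RNA there was 1 library each of AID-null cells after 3 weeks of reprogramming, wildtype cells after 3 weeks, untreated AID-null fibroblasts and untreated wildtype fibroblasts. For RRBS there was 1 library of each of these 4 kinds and 3 clones a genotype, picked at 2 weeks and measured after 3 weeks. All reprogrammed cells were made to express Oct4, Sox2, Klf4 and cMyc, and all cells came from tail fibroblast cultures. The AID allele, the age and number of the animals and the way the factors were delivered are not given in the labels.

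LIN28A and LIN28B bind precursors of the let-7 microRNAs and block their maturation, and TRIM71 (LIN41) is an RNA-binding protein whose own messenger RNA is a let-7 target; all are known from embryonic stem cells. TDH, threonine dehydrogenase, starts the breakdown of threonine in mitochondria and is known for its high level in mouse embryonic stem cells. GCAT takes its product to glycine and acetyl-CoA, and GLDC opens the glycine cleavage system, which hands a carbon unit to folate. NR0B1 (DAX1) is a nuclear receptor that lacks the usual DNA-binding domain and is found in mouse embryonic stem cells.

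The libraries differed in more than their stage. "AID-null" here means the libraries so labelled. Xist stood at 1.78 and 0.99 FPKM in the AID-null libraries and at 149 and 456 FPKM in the wildtype libraries, while the Y-linked Eif2s3y stood at 274 and 184 FPKM in the AID-null libraries and was listed at 0 in both wildtype libraries. Genotype and the sex of the donors therefore cannot be told apart in these RNA libraries. The 16 fibroblast markers summed to 17589 FPKM in the AID-null 3-week culture and 5934 FPKM in the wildtype one, with 12 of 16 at least 2-fold higher, none lower and none at 0 in either library. The 12 macrophage markers summed to 1412 FPKM in the AID-null and 375 FPKM in the wildtype 3-week culture, with 10 at least 2-fold higher. Ptprc, Tyrobp, C1qa, C1qb, C1qc and Adgre1 were listed at 0 in the wildtype culture only. Cd14 and Cd68 lay within 2-fold, at 147 and 193 FPKM in the AID-null and 219 and 112 FPKM in the wildtype culture. In untreated fibroblasts the 12 macrophage markers summed to 2801 FPKM in the AID-null and 1644 FPKM in the wildtype library. There, 11 of the 12 were at least 2-fold higher in the AID-null library. The 8 pluripotency markers summed to 6709 FPKM in the AID-null and 6873 FPKM in the wildtype 3-week culture, with 1 at least 2-fold lower and none higher, and Dppa5a, Utf1 and Tdgf1 were the most abundant. They belong to a wider list of 28 pluripotency genes that summed to 11041 FPKM in the AID-null and 14012 FPKM in the wildtype culture, with 9 lower and 1 higher. The wider list includes Pou5f1 (Oct4), Sox2 and Klf4, which the reprogrammed cells were made to express. Whether RNA of the delivered factors adds to their FPKM was not tested. Untreated fibroblasts carried 96753 and 83343 FPKM of fibroblast markers in the AID-null and the wildtype library, so the labelled cell type was present in both. In these bulk libraries, fewer cells of a type and less RNA per cell cannot be told apart, and the part of these marker differences in the results that follow was not tested.

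**Figure D1:**
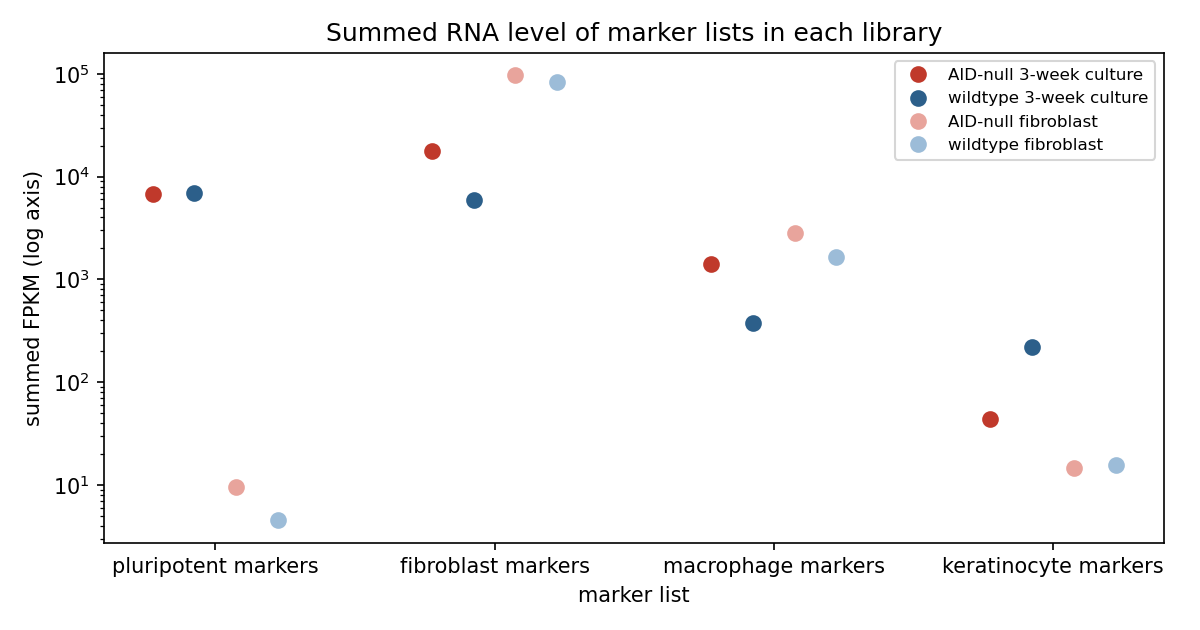
Summed RNA level (FPKM, log axis) of 4 marker lists in the 4 RNA libraries, each point 1 library. The pluripotency markers stand at 6709 FPKM in the AID-null and 6873 FPKM in the wildtype 3-week culture, whereas fibroblast markers stand at 17589 and macrophage markers at 1412 FPKM in the AID-null culture, above the 5934 and 375 FPKM of the wildtype culture.

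All 7 genes were at a higher RNA level in the 3-week cultures than in the fibroblasts of their genotype, and the 3-week cultures of the 2 genotypes differed by at least 2-fold in only 3 of them. Differences were taken on log2(FPKM + 1), which understates the change of low genes, and "higher" or "lower" below means a difference of 1 or more on that scale in a gene that reached 1 FPKM in one of the pair of libraries. Lin28b, Tdh and Nr0b1 were lower in the AID-null 3-week culture, and Lin28a, Trim71, Gcat and Gldc lay within 2-fold. Of 15204 genes compared at 3 weeks, 11.6% were lower in the AID-null culture and 9.76% were higher; since the contrast chose the genes, nothing is read from 3 of 7. The median over all these genes was -0.18, and it became -0.00 with upper-quartile scaling and 0.01 with median-of-ratios scaling, so differences are best read against it. With those scalings 60.3% and 61.3% of the genes past 2-fold were higher, against 45.8% as deposited. With 1 library a group there was no measure of the spread between cultures.

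**Figure D2:**
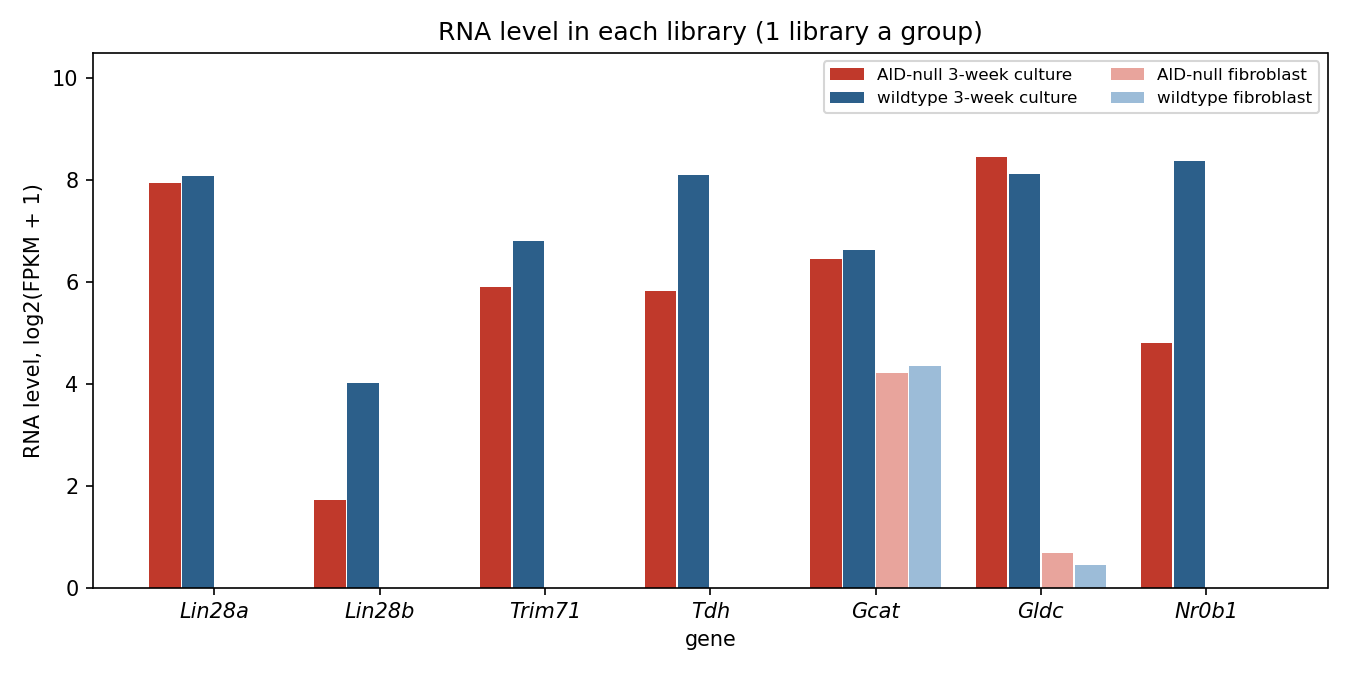
RNA level of the 7 genes, as log2(FPKM + 1), in the AID-null and wildtype 3-week cultures and in the AID-null and wildtype fibroblasts; each bar is 1 library, so there are no error bars. Lin28b, Tdh and Nr0b1 have a clearly shorter bar in the AID-null than in the wildtype 3-week culture, and 5 of the 7 genes have no bar in either fibroblast library because they are listed at 0.

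Lin28a, the LIN28 protein best known from embryonic stem cells, stood at 246 FPKM in the AID-null 3-week culture and 271 FPKM in the wildtype one, and was listed at 0 in both fibroblast libraries. The AID-null culture thus held 91.0% of the wildtype level, a difference of -0.14 in log2(FPKM + 1), with 8008 of 15204 genes lower still. The sign of this small difference depended on the scaling and reached 0.07. Among all genes compared with fibroblasts, 13 of 15076 had a larger difference than Lin28a in the AID-null cells and 18 of 15196 in the wildtype cells. A lower LIN28 level in the AID-null culture was therefore seen for Lin28b alone of the 2 paralogues.

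Lin28b, the paralogue of Lin28a, behaved differently in these libraries. It stood at 2.28 FPKM in the AID-null 3-week culture, against 15.2 FPKM in the wildtype 3-week culture, and was listed at 0 in both fibroblast libraries. The AID-null level was 15.0% of the wildtype level, a difference of -2.31 in log2(FPKM + 1), and 150 of 15204 genes had a lower difference. Per length of transcript, Lin28b was the lowest of the 7 genes in either 3-week culture, and the 2 paralogues were further apart in the AID-null culture. The 3 genes nearest to Lin28b over the 4 RNA libraries, by Euclidean distance of log2(FPKM + 1), were Tmem28, Krt16 and S100a14. Krt16, a keratin of stressed keratinocytes, stood at 2.55 FPKM in the AID-null and 12.9 FPKM in the wildtype 3-week culture and was listed at 0 in fibroblasts. The 8 keratinocyte markers, Krt16 among them, summed to 44.3 FPKM in the AID-null and 218 FPKM in the wildtype 3-week culture. Of 7 compared, 5 were lower and none was higher. The largest in the wildtype culture were Krt6b (96.2 FPKM), Sfn (54.2 FPKM) and Krt6a (33.3 FPKM), while Krt5 stood at 1.04 FPKM and Trp63 at 0. In the AID-null culture Sfn alone stood at 39.1 FPKM. The part of these markers in the Lin28b value was not tested. The genes nearest to Lin28a in the same measure were Fgf4, Cldn4 and Tcl1.

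The promoter windows of the 2 paralogues are shown because they differ in CpG content and were read separately by RRBS. Each is the RefSeq window of 250 bases before to 50 bases after the start in GRCm38.p6, on the minus strand, with CpGs in capitals; Lin28a lies at chr4:134018767-134019066 and Lin28b at chr10:45470152-45470451.
Lin28a: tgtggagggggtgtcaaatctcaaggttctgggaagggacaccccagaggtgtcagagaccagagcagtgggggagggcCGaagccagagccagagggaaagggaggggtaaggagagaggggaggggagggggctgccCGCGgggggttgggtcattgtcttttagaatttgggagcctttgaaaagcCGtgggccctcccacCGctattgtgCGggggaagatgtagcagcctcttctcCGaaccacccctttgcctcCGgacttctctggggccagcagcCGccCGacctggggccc
Lin28b: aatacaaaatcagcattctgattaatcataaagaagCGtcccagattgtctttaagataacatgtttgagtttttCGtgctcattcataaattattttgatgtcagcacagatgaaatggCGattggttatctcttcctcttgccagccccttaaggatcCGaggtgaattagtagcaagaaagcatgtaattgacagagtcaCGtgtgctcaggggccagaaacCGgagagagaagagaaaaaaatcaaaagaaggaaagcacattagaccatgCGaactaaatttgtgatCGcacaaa
The Lin28a window was 63.3% G and C with 10 CpGs, and the Lin28b window 39.0% with 8 CpGs, where the median window of the 32851 in the table had 7 CpGs.

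The let-7 microRNAs themselves could not be followed. All 11 let-7 genes in the RNA tables were listed at 0 in the 4 libraries, as were all but 13 of the 604 microRNA genes, so no level of let-7 is read from these files. Mature sequences of 3 family members from RefSeq are given to show the shared seed, bases 2 to 8, in capitals, by which the targets named next are recognised.
let-7a-5p: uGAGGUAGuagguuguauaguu
let-7d-5p: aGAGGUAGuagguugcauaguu
let-7g-5p: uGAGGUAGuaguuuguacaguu
Of 26 genes known as let-7 targets, 4 were at least 2-fold lower and 1 higher in the AID-null than in the wildtype 3-week culture. Among all genes compared 11.6% were lower and 9.76% higher. The list median was -0.46, against -0.18 over all genes. Mycn, a MYC family transcription factor, stood at 30.7 FPKM in the AID-null and 182 FPKM in the wildtype 3-week culture, and was listed at 0 in fibroblasts. Hras, a RAS GTPase, Tgfbr1, a TGF-beta receptor, and Igf2bp1, an RNA-binding protein, were lower by between -1.01 and -1.06 in log2(FPKM + 1), close to the 2-fold limit. Fas, a death receptor, was the 1 gene of the list that was higher, at 54.4 FPKM in the AID-null and 12.4 FPKM in the wildtype culture. It stood at 99.0 and 107 FPKM in AID-null and wildtype fibroblasts, above either 3-week culture. Hmga2, a chromatin protein often used as a let-7 readout, stood at 124 FPKM in the AID-null and 197 FPKM in the wildtype culture, within 2-fold.

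Genes for proteins that process let-7 or act with LIN28 were compared by their RNA level between the 3-week cultures. Of 19 such genes, 2 were lower, none was higher and 17 lay within 2-fold, where 11.6% of all genes compared were lower and 9.76% higher. The list median was -0.07, against -0.18 over all genes. Dgcr8, the partner of Drosha in the nucleus, stood at 34.2 FPKM in the AID-null and 81.7 FPKM in the wildtype culture. Xpo5, which exports precursors from the nucleus, stood at 88.4 FPKM in the AID-null and 198 FPKM in the wildtype culture. Tut4 and Tut7 (listed as Zcchc11 and Zcchc6) and Dis3l2, which add a uridine tail to LIN28-bound precursors and degrade them, stood at 53.5, 62.5 and 39.4 FPKM in the AID-null culture, and at 49.2, 66.6 and 37.9 FPKM in the wildtype culture. None of these 3 differed by 2-fold.

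Trim71 stood at 59.2 FPKM in the AID-null 3-week culture and 111 FPKM in the wildtype one, and was listed at 0 in both fibroblast libraries. The AID-null level was 53.4% of the wildtype level, a difference of -0.89 in log2(FPKM + 1) that stayed short of the 2-fold limit and ranged from -0.91 to -0.69 over the scalings and pseudocounts tried. The nearest genes over the 4 RNA libraries were Nodal, a ligand of the TGF-beta family, Hsd17b14 and Pnma5. All 7 genes known as TRIM71 targets in mouse cells lay within 2-fold between the 3-week cultures, with a median of 0.13. Cdkn1a, the cell cycle inhibitor p21, stood at 740 FPKM in the AID-null and 754 FPKM in the wildtype 3-week culture. In the fibroblasts it stood at 651 FPKM in the AID-null and 1206 FPKM in the wildtype library, also within 2-fold. Against fibroblasts, 3 of the 7 targets were lower in the AID-null culture, where 17.6% of all genes compared were, and 2 in the wildtype culture, where 17.7% were. Mbnl1, a splicing regulator, was 115 FPKM in the AID-null 3-week culture, against 335 FPKM in AID-null fibroblasts, and 105 FPKM in the wildtype culture, against 363 FPKM in wildtype fibroblasts. Tgfbr2, a TGF-beta receptor, was 107 FPKM in the AID-null 3-week culture, against 452 FPKM in AID-null fibroblasts, and 95.03 FPKM in the wildtype culture, against 502 FPKM in wildtype fibroblasts.

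The Trim71 window, on the minus strand at chr9:114564320-114564619 of GRCm38.p6, is shown because it held 19 CpGs and the largest number of cytosines read by RRBS among the 7 genes.
Trim71: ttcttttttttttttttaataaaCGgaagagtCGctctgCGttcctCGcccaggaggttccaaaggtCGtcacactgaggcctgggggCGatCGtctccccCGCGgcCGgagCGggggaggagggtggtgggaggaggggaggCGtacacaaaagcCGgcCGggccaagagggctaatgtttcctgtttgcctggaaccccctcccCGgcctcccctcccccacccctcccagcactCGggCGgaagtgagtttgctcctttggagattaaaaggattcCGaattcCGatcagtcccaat

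Tdh, the first enzyme of threonine breakdown, stood at 55.8 FPKM in the AID-null 3-week culture, against 274 FPKM in the wildtype one, and was listed at 0 in both fibroblast libraries. The AID-null level was 20.3% of the wildtype level, a difference of -2.28 in log2(FPKM + 1), with 161 of 15204 genes lower still. In the wildtype culture Tdh was at the level of Lin28a and Gldc, and in the AID-null culture it was at the level of Trim71. The genes nearest to it were Sall4, a zinc finger factor of pluripotent cells, Rbmxl2 and Zscan10. Sall4 stood at 76.7 FPKM in the AID-null and 223 FPKM in the wildtype 3-week culture.

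The enzymes downstream of TDH were alike in the 2 cultures. Gcat stood at 86.3 FPKM in the AID-null and 98.6 FPKM in the wildtype 3-week culture, 87.5% of the wildtype level, a difference of -0.19 in log2(FPKM + 1) that reached 0.01 with another scaling. It was the only one of the 7 genes with more than 1 FPKM in fibroblasts, where it stood at 17.5 FPKM in the AID-null and 19.3 FPKM in the wildtype library, and so the only one that could be compared there. Of 13788 genes compared between the fibroblasts, 4.26% were at least 2-fold higher in the AID-null library, and Gcat was within 2-fold. Gcat was 4.92 times the fibroblast level in the AID-null culture and 5.10 times in the wildtype culture. Its nearest genes were Etv4, a transcription factor, 4632434I11Rik and Mapkapk3, a kinase.

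The Gcat window, on the plus strand at chr15:79030624-79030923 of GRCm38.p6, held 21 CpGs, the most of the 6 windows in the table, and is shown because it was nearly unmethylated in every library.
Gcat: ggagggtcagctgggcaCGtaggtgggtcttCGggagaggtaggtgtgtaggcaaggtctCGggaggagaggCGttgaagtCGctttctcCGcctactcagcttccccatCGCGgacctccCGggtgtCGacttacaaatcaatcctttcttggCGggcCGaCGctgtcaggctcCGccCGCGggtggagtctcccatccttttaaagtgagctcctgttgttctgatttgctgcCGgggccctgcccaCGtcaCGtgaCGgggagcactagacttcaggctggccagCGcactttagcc

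Gldc stood at 352 FPKM in the AID-null and 276 FPKM in the wildtype 3-week culture, and at 0.61 and 0.36 FPKM in AID-null and wildtype fibroblasts. It was the only one of the 7 that stood above the wildtype level at 3 weeks, at 127%, a difference of 0.35 that is within 2-fold. The difference from fibroblasts was 7.78 in log2(FPKM + 1) in AID-null cells and 7.67 in wildtype cells. The other 3 parts of the glycine cleavage system also lay within 2-fold between the 3-week cultures. Gcsh, the lipoyl carrier, stood at 148 FPKM in the AID-null and 226 FPKM in the wildtype culture. Amt, the aminomethyltransferase, stood at 146 and 167 FPKM in the AID-null and wildtype 3-week cultures, and at 5.96 and 4.78 FPKM in AID-null and wildtype fibroblasts. Dld, the dihydrolipoyl dehydrogenase shared with other complexes, stood at 219 and 248 FPKM in the AID-null and wildtype 3-week cultures. Gldc and Amt were thus the 2 parts that were at least 2-fold higher than in fibroblasts in both genotypes. The nearest genes to Gldc were Fbxo15, Epcam and Fgf4, all known from pluripotent or epithelial cells.

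Around these enzymes, 3 of 26 serine, glycine and folate enzymes compared were lower in the AID-null 3-week culture, 2 were higher and 21 lay within 2-fold. Among all genes compared 11.6% were lower and 9.76% higher. The list median was -0.53, against -0.18 over all genes. Psat1, an enzyme of serine synthesis, stood at 308 FPKM in the AID-null and 652 FPKM in the wildtype culture. Tyms, thymidylate synthase, stood at 23.6 and 51.5 FPKM, and the folate receptor Folr1 at 31.1 and 63.8 FPKM, in the AID-null and wildtype cultures. Aldh1l2 and Aldh1l1, which oxidise formyl folate, were higher. Aldh1l2 stood at 20.7 FPKM in the AID-null and 6.57 FPKM in the wildtype culture, and at 247 and 246 FPKM in AID-null and wildtype fibroblasts, far above either 3-week culture. Shmt2, the mitochondrial serine hydroxymethyltransferase, was level at 307 FPKM in the AID-null and 344 FPKM in the wildtype culture.

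In the S-adenosylmethionine cycle, 1 of 13 genes compared was lower and 1 was higher, where 11.6% and 9.76% of all genes compared were. The other 11 lay within 2-fold. The lower one was Mat2a, the enzyme that makes S-adenosylmethionine in most cells, at 200 FPKM in the AID-null and 693 FPKM in the wildtype 3-week culture. The higher one was Cbs, cystathionine synthase, at 58.6 FPKM in the AID-null and 28.5 FPKM in the wildtype culture. Of 13 genes of amino acid transport and breakdown compared, 2 were lower, where 11.6% of all genes compared were, and both were transporters. Slc7a3, a transporter of cationic amino acids, stood at 129 FPKM in the AID-null and 632 FPKM in the wildtype culture. Slc38a1, a transporter of glutamine and other neutral amino acids, stood at 48.0 and 150 FPKM in the AID-null and wildtype cultures. Tha1, the threonine aldolase that splits threonine by another route, stood at 3.32 FPKM in the AID-null and 3.56 FPKM in the wildtype 3-week culture, against 12.5 and 12.7 FPKM in the AID-null and wildtype fibroblasts.

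Nr0b1 had the largest difference of the 7 genes. It stood at 26.8 FPKM in the AID-null 3-week culture, against 332 FPKM in the wildtype one, and was listed at 0 in both fibroblast libraries. The AID-null level was 8.06% of the wildtype level, a difference of -3.58 in log2(FPKM + 1), and 27 of 15204 genes had a lower difference. In the wildtype culture Nr0b1 was the highest of the 7 genes per length, and in the AID-null culture it was the second lowest, above Lin28b. Nr0b1 lies on X, where the libraries differ in Xist and in Y-linked RNA. Of 568 X-linked genes compared, 28.7% were at least 2-fold lower in the AID-null 3-week culture, against 10.9% of 14508 autosomal genes, and the medians were -0.55 and -0.17. Between the fibroblasts the X-linked median was -0.02 and the autosomal one -0.03. Over 3 weeks the X-linked and autosomal medians were 0.69 and 0.15 in wildtype cells, and 0.004 and -0.05 in AID-null cells. The part of the X chromosome in the Nr0b1 difference was not tested, and sex and genotype cannot be told apart. The genes nearest to Nr0b1 were Mycn, Tdh and 1700029P11Rik, at distances from 0.89 to 1.23 on the log2 scale.

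Of 37 nuclear receptors and partners of NR0B1 that could be compared, 6 were lower in the AID-null 3-week culture, 3 were higher and 28 lay within 2-fold. Among all genes compared 11.6% were lower and 9.76% higher. The list median was -0.30, against -0.18 over all genes. Esrrb, an orphan receptor of the pluripotency network, stood at 174 FPKM in the AID-null and 414 FPKM in the wildtype culture. Nr5a2, a receptor that NR0B1 is known to bind, stood at 10.1 FPKM in the AID-null and 22.0 FPKM in the wildtype culture, and both receptors were below 1 FPKM in fibroblasts. Rxrg, Nr1h3 and Nr2f1, also lower, had no more than 13.7 FPKM in either 3-week culture. Those higher were Nr1d1, a clock receptor, at 240 FPKM in the AID-null and 81.6 FPKM in the wildtype culture, Thra, a thyroid hormone receptor, at 161 and 61.3 FPKM, and Pparg, a receptor of fat cells, at 7.69 and 3.22 FPKM, each in the AID-null and then the wildtype culture.

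The pluripotency genes gave the setting of these differences. Of 28 core and early pluripotency genes, Lin28a included, 9 were at least 2-fold lower in the AID-null than in the wildtype 3-week culture. Klf4, a factor the cells were made to express, was 1 of these 9. Of the others, 1 was higher and 18 lay within 2-fold. Among all genes compared 11.6% were lower and 9.76% higher. The list median was -0.54, against -0.18 over all genes. L1td1, an RNA-binding protein that interacts with LIN28A in human embryonic stem cells, stood at 162 FPKM in the AID-null and 744 FPKM in the wildtype culture. Klf2 stood at 51.2 and 238 FPKM, Sall1 at 31.0 and 142 FPKM, Dppa2 at 38.0 and 133 FPKM, and Gdf3 at 43.1 and 132 FPKM in the AID-null and wildtype cultures. Dppa3, an oocyte and naive-state factor, was the one gene higher, at 33.6 FPKM in the AID-null and 14.5 FPKM in the wildtype culture. Nanog stood at 265 and 347 FPKM, and Fgf4 at 268 and 250 FPKM, in the AID-null and wildtype cultures, within 2-fold.

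**Figure D3:**
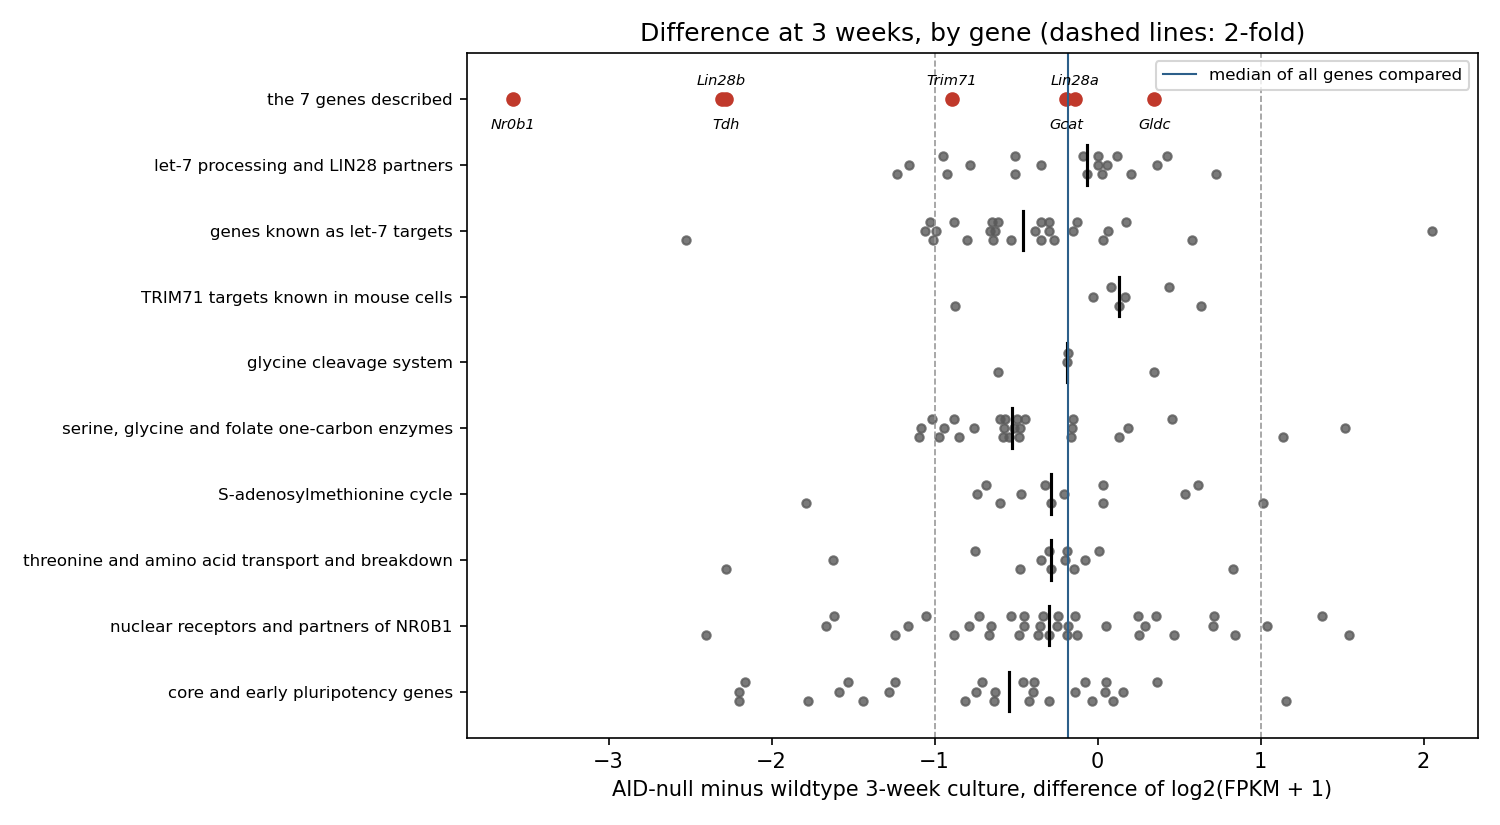
Difference of log2(FPKM + 1), AID-null minus wildtype 3-week culture, for the 7 genes (red, named) and for the genes of 9 lists (grey), each point 1 gene, with black bars at list medians, a blue line at the median of all genes compared (-0.18) and dashed lines at 2-fold. Nr0b1, at -3.58, lies to the left of every listed gene, and Lin28b and Tdh lie at -2.31 and -2.28, whereas Lin28a, Gcat and Gldc lie near 0.

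Over 3 weeks, all 7 genes were at least 2-fold higher than in fibroblasts in the AID-null cells, where 21.3% of 15076 genes were, and all 7 in the wildtype cells, where 27.0% of 15196 were. The 2 comparisons rest on separate fibroblast libraries, but each uses a 3-week library of the contrast that chose the genes. For Lin28a, Lin28b, Trim71, Tdh and Nr0b1, listed at 0 in fibroblasts, no fold is given. The difference of the 2 changes was 0.10 for Gldc and -0.06 for Gcat in log2(FPKM + 1), and for the other 5 it equals the difference between the 3-week cultures.

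Promoter methylation, which was not used in choosing the genes, was low at 3 of the 4 promoters that could be read and intermediate at Lin28b. The RefSeq windows were located in the files' own coordinates (build mm9) by the spacing of their CpGs, a method chosen after the files were seen, so distances from the start are given in place of positions. Windows of Lin28a, Lin28b, Trim71 and Gcat were placed. The windows of Gldc and Nr0b1 held 10 and 14 CpGs and no CCGG, as did 47.2% of all windows in the table; neither could be placed, and the table has no Tdh window. Promoter methylation of these 3 genes was not analysed here. Values are percent of reads that were methylated, summed over listed cytosines with at least 10 reads, with 95% Wilson intervals that cover counting error only. A read that spans several cytosines is counted at each of them, and the listed cytosines differ between libraries, so the intervals are too narrow, Fisher p-values too small, and no p-value of a single promoter is given from a comparison of single libraries.

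At the Lin28a window, methylation was 0%, 0.219% and 0% in AID-null clones 1 to 3 and 0% in each of the wildtype clones, over 333 to 1001 reads a clone. It was 1.82% (5 of 275 reads, interval 0.779% to 4.18%) in the AID-null 3-week culture and 0% (0 of 134 reads, up to 2.79%) in the wildtype one. AID-null fibroblasts had 2.30% (7 of 305 reads) and wildtype fibroblasts 6.34% (34 of 536 reads, interval 4.57% to 8.73%). The wildtype fibroblasts had the highest value of the 10 libraries. The wildtype 3-week library differed from the wildtype fibroblast library by -6.34 points, and by -3.51 points over the cytosines listed in all 10 libraries.

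At the Lin28b window, methylation was 19.2% (57 of 297 reads, interval 15.1% to 24.1%) in the AID-null 3-week culture and 12.2% (27 of 221 reads, interval 8.53% to 17.2%) in the wildtype one. It was 6.13% (10 of 163 reads) in AID-null fibroblasts and 10.2% (15 of 147 reads) in wildtype fibroblasts. The AID-null 3-week library was 13.1 points above the AID-null fibroblast library, or 8.86 points with the mean of the levels at each cytosine. The wildtype 3-week library was 2.01 points above the wildtype fibroblast library, or 3.16 points with that mean. The AID-null 3-week library was 6.97 points above the wildtype 3-week library, or 9.60 points with that mean and 5.56 points with at least 20 reads a cytosine. AID-null clones 1 to 3 had 0%, 4.55% and 18.6%, and wildtype clones 1 to 3 had 18.4%, 20.4% and 14.1%. AID-null clones 1 and 2 were below every wildtype clone and AID-null clone 3 lay among them, so the groups overlapped. The means were 7.70% ± 9.67 in AID-null clones and 17.6% ± 3.20 in wildtype clones (SD, n = 3 each), and an exact two-sided permutation test gave p = 0.3, where 0.1 is the smallest that 3 against 3 allow.

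The Lin28b value rested on few cytosines. The CpG 25 bases before the start lies within a CCGG and was listed in all 10 libraries. There, 0 of 113, 0 of 127 and 36 of 170 reads were methylated in AID-null clones 1 to 3, and 20 of 90, 19 of 110 and 24 of 123 reads in wildtype clones 1 to 3. In the 3-week cultures 28 of 114 reads (24.6%) were methylated there in AID-null cells and 16 of 82 (19.5%) in wildtype cells. At 25 bases after the start they were 29 of 113 (25.7%) in AID-null and 9 of 83 (10.8%) in wildtype cells, and at 43 bases after it 0 of 70 and 2 of 33 in AID-null and wildtype cells. The wildtype 3-week library also listed 2 cytosines, with 0 of 11 and 0 of 12 reads methylated, that the AID-null one did not. Within 1000 bases either side of the start, a region added after the data were seen, AID-null clones had 1.18%, 2.19% and 8.77%, and wildtype clones 8.55%, 13.8% and 11.5%. That difference of -7.22 points had an adjusted p of 0.303 (limma) and an exact permutation p of 0.2. It rested on 7, 7 and 10 listed cytosines in AID-null clones 1 to 3 and 6, 6 and 8 in wildtype clones 1 to 3. These were not all the same cytosines. In the same region the 3-week library was 13.1 points above the fibroblast library in AID-null cells and 7.60 points above it in wildtype cells. Here too the listed cytosines differed, with 4 in the AID-null 3-week library and 7 in AID-null fibroblasts. The wildtype 3-week library listed 6 and the wildtype fibroblasts 8. A change at the same cytosines across this region is not read from these values. The AID-null 3-week library was 3.79 points above the wildtype one there.

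At Trim71 the window had 0%, 0.0544% and 0.890% methylated reads in AID-null clones 1 to 3 and 0%, 0% and 0.186% in wildtype clones 1 to 3. The 3-week cultures had 0.3502% in AID-null and 0.556% in wildtype cells, and the fibroblasts 0.538% in AID-null and 0.0530% in wildtype cells. All 10 values were under 1%, over 1674 to 2520 reads. At Gcat, the AID-null clones had 0%, 0% and 0.0756%, and the wildtype clones 0.0826%, 0.679% and 0.127%. Every AID-null clone was below every wildtype clone, as in 8.95% of the 10927 windows compared, with an exact two-sided permutation p of 0.1, the smallest possible. AID-null clone 3 had 1 methylated read of 1322 and wildtype clone 1 had 1 of 1211. The order of these 2 clones thus rested on the number of reads alone. The difference of the means was -0.27 points, and -0.08 points without wildtype clone 2. The bulk libraries at Gcat lay between 0% and 0.258%. For comparison, 88.8% to 92.7% of the 10804 windows read in all 10 libraries were under 5% methylated, so Lin28a in 9 libraries, Trim71 and Gcat were within the common range and Lin28b was above it in 8 of 10.

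Tested over 10927 windows with at least 3 cytosines in every clone, 2 windows (0.0183%) were called between AID-null and wildtype clones by limma at an adjusted p under 0.05, both lower in AID-null clones, and 972 had an unadjusted p under 0.05. None of the 3 members in that test was called. Lin28a differed by 0.07 points (limma adjusted p = 0.965), Trim71 by 0.25 points (adjusted p = 0.779) and Gcat by -0.27 points (adjusted p = 0.648). Without AID-null clone 3, Trim71 differed by -0.03 points. The limma fit was on log2((methylated + 1)/(unmethylated + 1)), where the Lin28a difference was -0.20, opposite in sign to its points. With almost no methylated reads that ratio depends on the number of reads, so the Lin28a p does not test the points. Trim71 and Gcat had at most 19 and 11 methylated reads in a clone, so their p-values are not read as tests of the points either. Lin28b had 2 cytosines in some clones and was left out of the limma fit. Between single libraries, at an adjusted Fisher p under 0.05 and at least 25 points, 0.212% of windows were called between the AID-null and wildtype 3-week cultures, 1.99% between the AID-null 3-week culture and AID-null fibroblasts, 4.13% between the wildtype 3-week culture and wildtype fibroblasts, and 1.77% between AID-null and wildtype fibroblasts. None of the 4 promoters was called in any of these comparisons. Their highest level in these single libraries was 19.2%, at Lin28b in the AID-null 3-week culture. A difference of 25 points was therefore out of reach, and nothing is read from the lack of calls.

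**Figure D4:**
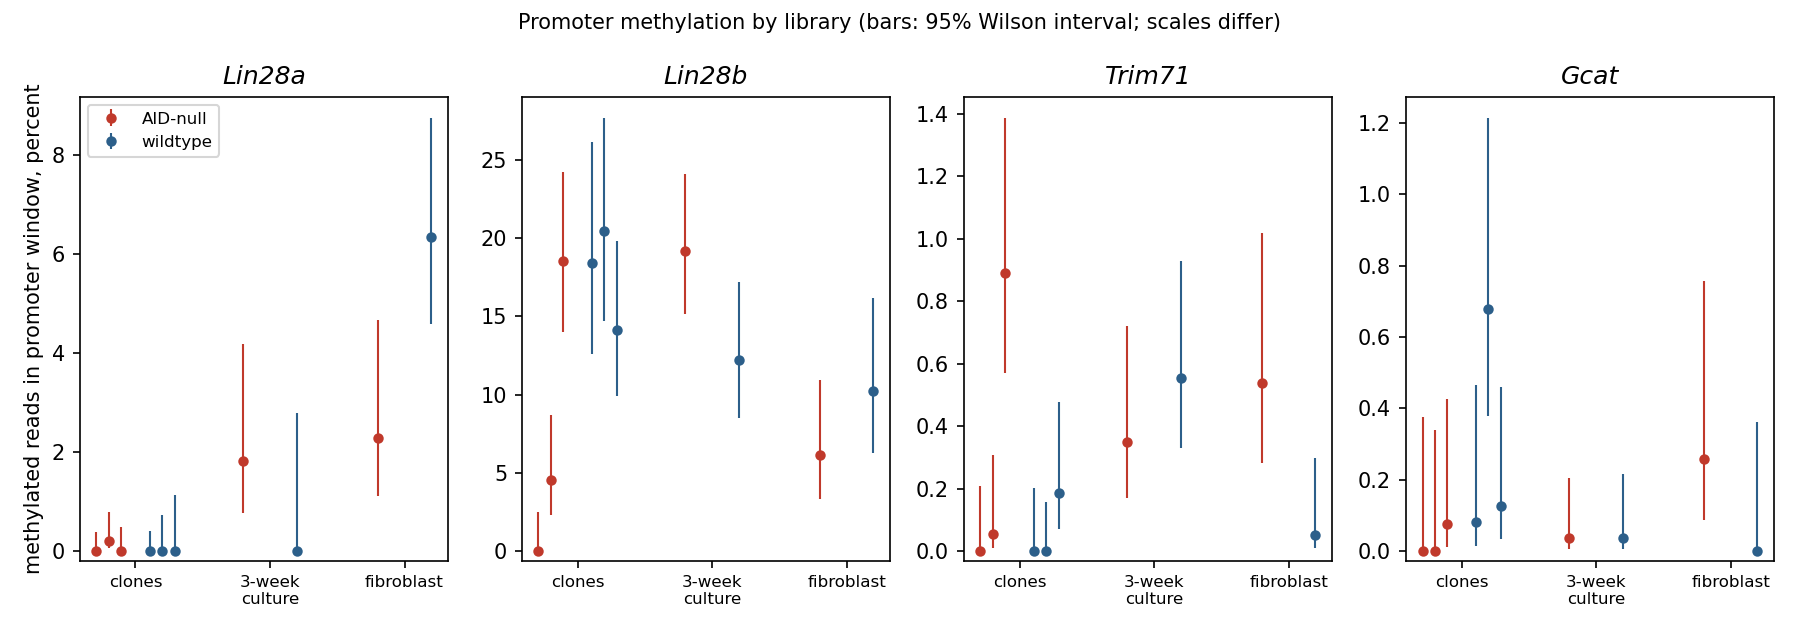
Percent of methylated reads in the promoter windows of Lin28a, Lin28b, Trim71 and Gcat in AID-null (red) and wildtype (blue) clones, 3-week cultures and fibroblasts; each point is 1 library, bars are 95% Wilson intervals of its reads, and the vertical scales differ. Lin28b alone exceeds 10%, with AID-null clones at 0%, 4.55% and 18.6% beside wildtype clones at 14.1% to 20.4%.

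The 6 promoter windows in the table were also searched on both strands for 4 short sequences known from factors used or active in reprogramming. The POU octamer ATGCAAAT, found in 1.74% of the 32851 windows, and the KLF-type CACACCC, in 7.95%, were in none of the 6. The SOX-type CATTGT, in 12.6% of windows, was in Lin28a alone, 96 bases before the start. The E-box CACGTG, in 7.15% of windows, was in Lin28b, 49 bases before the start, and in Gcat, 2 bases after it. These are matches of letters and not sites.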

How the data were processed

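Per the submitters' processing notes, RRBS reads went through Bismark and methylKit and RNA reads through TopHat and Cufflinks, with mouse build mm9; neither versions nor filters nor gene annotation are stated there. Files of RRBS as deposited hold, per the file headers, the read count (coverage) at each cytosine and the percent of reads methylated; methylated reads were recovered from both. Every listed position had at least 10 reads, and libraries held 222945430 to 296572452 reads over cytosines. The deposited RNA values are FPKM, normalised by the authors, with unknown read depth.

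RNA differences used log2(FPKM + 1), with no test. RefSeq promoter windows (GRCm38.p6) were placed on mm9 where the listed cytosines fit their CpGs, 14072 of 32851 in all, and the spacing of neighbours was checked. Clones were compared with limma 3.58.1 in R 4.3.3 on log2((methylated + 1)/(unmethylated + 1)), single libraries with Fisher's exact test (scipy 1.17.1), both Benjamini-Hochberg adjusted over all windows and tested on simulated data; placement and the 25-point limit were chosen after the files were seen. The labels do not say that clones came from separate animals, and the p-values cover only how much these clones vary. Genes named from each list were those past 2-fold at 3 weeks, at most 5 in each direction, plus genes that show a family and the 3 nearest genes of each member; Hmga2, Tut4, Tut7, Dis3l2, Shmt2, Tha1, Cdkn1a, Mbnl1, Tgfbr2, Nr5a2, Nanog and Fgf4 were added for their known roles after values were seen. Some genes that this rule or the label check would name are not reported here. Members and lists were chosen with earlier results of these data known. Of 22026 symbols 98.9% matched the gene table. Alternatives were other pseudocounts, scalings, filters, coverage minimums, window sizes and leaving out each clone.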

Additional observations from a re-analysis of the deposited data

Results flagged for a closer look

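Promoter methylation in the promoter window differed in opposite directions over 3 weeks in the 2 genotypes at Gcat and Trim71. At Gcat the 3-week culture minus fibroblast difference was -0.222 points in AID-null cells and 0.0383 points in wildtype cells. At Trim71 it was -0.188 points in AID-null cells and 0.503 points in wildtype cells. The Gcat values were 1 of 2753 methylated reads at 3 weeks and 3 of 1161 in fibroblasts in AID-null cells. In wildtype cells they were 1 of 2612 and 0 of 1056, so the sign there rested on 1 read. Each arm is 1 library, every value is under 1% methylated, and the difference between genotypes was not tested. Within 1000 bases either side of the start, both genotypes differed the same way: Gcat by 0.57 points in AID-null and 0.46 points in wildtype cells, and Trim71 by -0.29 points in AID-null and -0.20 points in wildtype cells.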

How the results depend on the processing

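Of 201 values of the 7 genes under alternative settings, 192 kept their sign and their side of the limit for a call, with the RNA values of Lin28a and Gcat, whose sign depended on the scaling, counted as within 2-fold. Lin28b in the AID-null 3-week culture against AID-null fibroblasts was 0.30 with a pseudocount of 10, and 8 methylation differences, none of them called, changed sign. Within 1000 bases either side these were, in points, -0.30 for Lin28a and -0.0296 for Trim71 between clones, 0.57 for Gcat in AID-null cells over 3 weeks and 0.29 between 3-week cultures, -0.0867 for Trim71 between fibroblasts and -0.20 in wildtype cells over 3 weeks. The others were -0.0348 for Trim71 without AID-null clone 3 (up to 0.41 when another clone was left out) and 3.89 for Lin28b between fibroblasts with the mean of per-cytosine levels. Between single libraries, 13 of 75 promoter values crossed an adjusted Fisher p of 0.05, although none reached 25 points. Among them were Lin28b between 3-week cultures, with the mean of per-cytosine levels, and Lin28a in wildtype cells over 3 weeks, with shared cytosines. With that mean, the methylated reads tested were rebuilt from the mean level and were not counted directly. A pseudocount of 10 gave 599 genes higher and 661 lower at 3 weeks, 1543 and 1479 over 3 weeks in AID-null cells, 2210 and 1675 in wildtype cells, and 117 and 33 between fibroblasts, against 1484 and 1757, 3208 and 2652, 4098 and 2693, and 588 and 185 with a pseudocount of 1. A minimum of 5 FPKM gave 355 higher and 76 lower between fibroblasts; these are fewer genes tested.

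The 2 windows called between clones became 0 with the mean of per-cytosine levels, 0 within 1000 bases either side, 1 with cytosines listed in all 10 libraries and 0 to 0 when any clone was left out; the 1000-base region and the shared cytosines were added after the data were seen. With the clone numbers as a replicate block the count was 0, with 983 windows at an unadjusted p under 0.05; same-numbered clones correlated at 0.02, -0.00 and 0.02, so the numbers only name the clones, and no clone pairing was used. Between the 3-week cultures 24 windows called became 12 at a coverage of 30, 4 with at least 6 cytosines, 43 with the mean of per-cytosine levels and 12 with shared cytosines. With at least 6 cytosines, 219 became 120 in AID-null cells and 459 became 253 in wildtype cells over 3 weeks. The cause was not tested. RNA has 1 library a group, and Lin28b rests on 2 to 5 cytosines a library, which limits both.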
